A study of Drosophila melanogaster with 9 samples.

Results

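Ovary transcripts of Drosophila melanogaster mutant for DPLG1 were compared with those of flies mutant for DPLG4. The comparison rests on 6 of the 9 libraries of the study, namely replicates 22, 5 and 7 of the DPLG1 mutant and replicates 15, 3 and 7 of the DPLG4 mutant, chosen by their titles. The other 3 libraries are controls of the w1118 strain, which carry neither mutation by their labels. They helped to estimate the spread and are shown beside the mutants, but they form no side of the contrast. All flies were kept at 25 °C and total RNA of whole ovaries was sequenced. How each mutation was made, whether the numbers in the titles name separate mutant lines, the genetic background of the mutants and the age of the flies are not given by the labels. The study describes the libraries of a group as biological replicates, and the p-values measure the spread between these libraries only.

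DPLG genes descend from transposases of the PIF superfamily, enzymes that cut and move DNA transposons. In domesticated copies the transposon itself has been lost and the host keeps the protein, which can retain the ability to bind DNA. In the fly ovary, germline cells pass through mitotic and meiotic stages at the tip of each ovariole and are then enclosed by follicle cells. The follicle cells make yolk proteins and the layers of the eggshell, so whole ovary RNA is a mixture of germline and somatic transcripts at all stages. The direct comparison asks where the ovaries of the mutants differ from each other.

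Counts assigned to genes were 44654859 to 83830254 per library in DPLG1 mutants and 51512876 to 95751320 in DPLG4 mutants, so 3 counts, used as the floor of a library, corresponded to 0.0313 to 0.0672 CPM in the mutants. Control replicates were less even, at 22289241, 93767502 and 18078883 counts. CPM are counts divided by the library size and brought to a common total. They are scaled by TMM library sizes (trimmed mean of M-values) and are not divided by gene length, so they compare a gene between libraries and not genes with each other. On the log scale, libraries of the DPLG1 mutant correlated with each other at 0.985 to 0.990, those of the DPLG4 mutant at 0.976 to 0.989, and libraries of different mutants at 0.976 to 0.990. Libraries of different mutants were thus about as alike as replicates of 1 mutant. The 15 early germline genes held 2937 to 3276 CPM in DPLG1 mutants and 2763 to 3855 CPM in DPLG4 mutants, and all 16 chorion genes were detected, as in an ovary. Digestive enzyme genes of the gut varied between libraries, with summed levels of 0.497, 1.65 and 86.4 CPM in replicates 22, 5 and 7 of the DPLG1 mutant and of 20.4, 67.7 and 0.354 CPM in DPLG4 mutant replicates 15, 3 and 7. High and low libraries occurred in both mutants, and the part of this material in the results was not tested.

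Each mutant lacked nearly all reads of its own targeted gene and kept reads of the other. The gene of DPLG1 is CG12253 (FBgn0026148). It codes for a protein and spans 10987806 to 10989241 on the plus strand of 2L in build BDGP6.54. The DPLG1 mutant libraries held 0, 0 and 1 counts of it, while replicates 15, 3 and 7 of the DPLG4 mutant stood at 76.8, 63.7 and 58.1 CPM. The ratio of DPLG4 to DPLG1 mutants was 12019 with an exact 95% interval of 2157 to 474758, which covers counting error only (edgeR adjusted p = 6.52e-07). The gene of DPLG4 is CG7492 (FBgn0035807), which also codes for a protein and spans 7651866 to 7654752 on the minus strand of 3L. It stood at 71.3, 106 and 95.2 CPM in replicates 22, 5 and 7 of the DPLG1 mutant and at 1.68, 1.52 and 1.52 CPM in DPLG4 mutant replicates 15, 3 and 7. The DPLG1 mutant mean was 57.6-fold higher (90.7 ± 17.6 against 1.57 ± 0.0950 CPM, SD, n = 3, adjusted p = 3.05e-06). Controls of CG7492 stood at 115, 145 and 167 CPM, above every library of both mutants. Controls of CG12253 stood at 69.4, 59.4 and 54.0 CPM and overlapped the DPLG4 mutant. No library went against its genotype label. The remaining DPLG relatives gave no call. CG32095, listed as DPLG3, stood at 56.4, 57.6 and 62.1 CPM in DPLG1 mutants and at 62.9, 57.6 and 55.1 CPM in DPLG4 mutants (log2 fold change 0.00, SE 0.09, adjusted p = 0.994). Its exons overlap those of the ribosomal protein gene RpL10Ab on the opposite strand, and no label states whether the counting used strand. CG32187, listed as DPLG2, was near 0 in every library, at most 0.0414 CPM, and was not tested.

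Beyond the targets, the ovaries of the mutants differed in a short list of genes, led by pst, CG14985, CG7565, Arc1 and Arc2 on the side of the DPLG1 mutant and by CG4098, CG16957, CG40472 and CG2162 on the side of the DPLG4 mutant. A gene is called here where its Benjamini-Hochberg adjusted p over all tested genes was under 0.05 in the edgeR quasi-likelihood test. Of 8427 tested genes, 27 were called higher in DPLG1 mutants (0.320%) and 26 lower (0.309%), with 1 target on each side. In all, 53 genes were called, 0.629% of those tested. The CPM of the DPLG1 mutants did not overlap those of the DPLG4 mutants for any of the 53, whereas 15.5% of all tested genes did not overlap (9.04% higher and 6.46% lower in DPLG1 mutants). A fitted difference of at least 2-fold was seen for 42 of them and a smaller one for 11. By annotation 47 are protein-coding, 2 are non-coding RNA genes, 2 are pseudogenes and 2 have no entry. Mean levels were under 1 CPM in both mutants for 9 called genes. Exons of 16 called genes overlap another annotated gene or element on the opposite strand, and besides those named with their values below these include CG13813, Spindly, Tep2, CG13295, CG2162 and Jhbp13. DESeq2 called the same 53 among 102 higher and 104 lower genes of 10503 tested (0.971% and 0.990%). At an unadjusted p under 0.05 there were 308 higher (3.65%) and 328 lower genes (3.89%), together 7.55% of those tested.

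**Figure D1:**
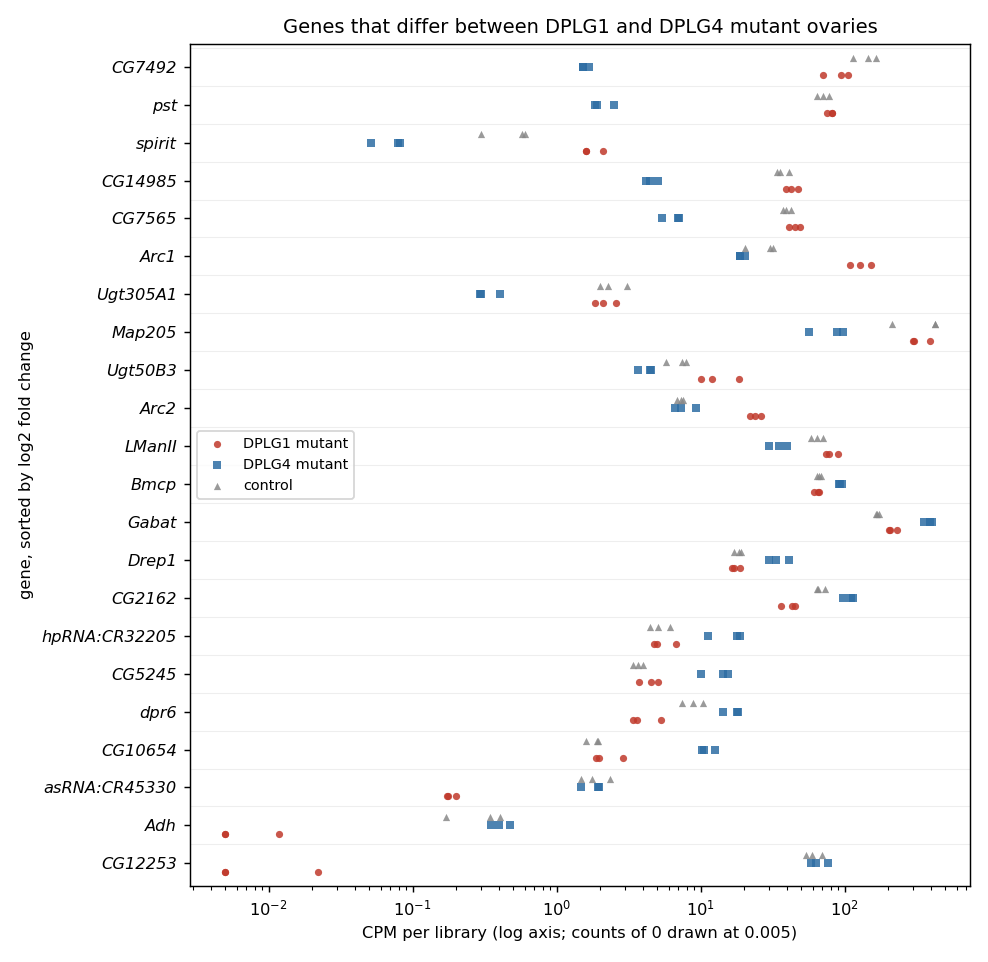
Level of called genes (vertical axis, sorted by log2 fold change) in each library as CPM on a log axis (horizontal), with circles for DPLG1 mutants, squares for DPLG4 mutants and triangles for controls, 3 points per group, and counts of 0 drawn at a fixed value at the left. Circles and squares do not overlap for any gene drawn, while triangles lie with the circles for pst and CG14985 and nearer to the squares for Arc1, Arc2 and CG12253.

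The number of calls depended on single libraries of both mutants and of the controls. Without DPLG1 mutant replicate 22 there were 12 higher and 12 lower genes, without replicate 5 there were 17 and 13, and without replicate 7 there were 17 and 28. Without DPLG4 mutant replicate 3 there were 13 and 17. Leaving out DPLG4 mutant replicate 15 gave 27 and 24 calls, and leaving out replicate 7 gave 18 and 28. Without control replicates 1, 2 and 3 in turn there were 50, 39 and 43 calls in both directions together. In an edgeR fit to only the 6 mutant libraries, 29 of the 53 were called. Those missed there include bam, Drep1, PGRP-SD and Bmcp (adjusted p = 0.100, 0.0613, 0.0665 and 0.112). A total of 21 of the 53 genes, the targets included, passed the threshold under every alternative that could test them. Among these were pst, CG14985, CG7565, CG4098, Arc1, Arc2, CG16957, spirit, CG2162, dpr6, Gabat, LManII and Adh. A called gene described below without a number of missed alternatives passed all of them.

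**Figure D2:**
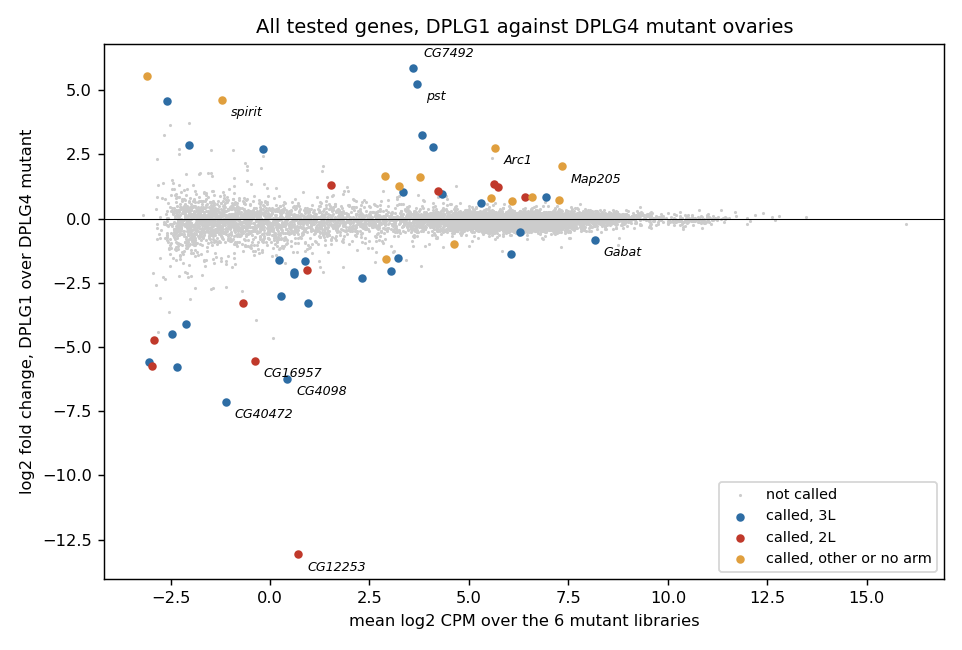
Scatter plot of the log2 fold change (DPLG1 over DPLG4 mutant, vertical axis) against the mean log2 CPM over the 6 mutant libraries (horizontal axis), with 1 point per tested gene and called genes coloured by chromosome arm. CG7492 at 5.85 and pst at 5.25 stand at the upper edge, CG12253 at the lower edge, and most genes lie close to 0.

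The DPLG4 mutant had sharply lower levels of several genes of 3L, the arm that carries CG7492. The gene pst (pastrel, FBgn0035770, 3L at 7357275 to 7360263, minus strand) is known for its effect on resistance to RNA viruses. It stood at 74.9, 82.3 and 81.6 CPM in replicates 22, 5 and 7 of the DPLG1 mutant and at 2.52, 1.86 and 1.91 CPM in DPLG4 mutant replicates 15, 3 and 7. Every DPLG1 mutant library was far above every DPLG4 mutant library, and the difference was 38.0-fold (log2 fold change 5.25, SE 0.16, edgeR adjusted p = 6.52e-07). Controls lay with the DPLG1 mutant, at 64.3, 71.4 and 77.8 CPM. In bulk ovary RNA, fewer cells of a type and less RNA per cell cannot be told apart, here and for the genes below. The genetic background of the mutants is not given. Differences linked to the mutated chromosome and effects of the mutation therefore cannot be told apart either. CG14985 (3L at 4003474 to 4006626, plus strand) stood at 47.6, 38.9 and 42.6 CPM in DPLG1 mutants against 5.10, 4.17 and 4.45 CPM in DPLG4 mutants, 9.43-fold apart (adjusted p = 5.21e-06). CG7565 (3L at 8087635 to 8091786, minus strand) stood at 41.0, 48.9 and 45.1 against 7.01, 7.12 and 5.37 CPM, 6.90-fold apart (adjusted p = 1.77e-05). For both genes the groups lay far apart, and the controls, at 33.9 to 41.0 and 37.2 to 42.6 CPM, overlapped the DPLG1 mutant range.

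Other 3L genes in the same direction included an enzyme gene and hormone and immune genes of low level. Ugt305A1, which encodes a UDP-glycosyltransferase, an enzyme that attaches sugars to small molecules, stood at 2.11, 1.86 and 2.58 CPM in DPLG1 mutants and 0.297, 0.404 and 0.295 CPM in DPLG4 mutants (6.47-fold, adjusted p = 0.00219). CG11357 was 1.77-fold higher in DPLG1 mutants, with a narrow spread in both groups (163 ± 3.44 against 91.9 ± 3.50 CPM, SD, n = 3, adjusted p = 0.00184). CG11263, CG10147 and CG13295 were 1.96-fold, 2.05-fold and 1.503-fold higher (adjusted p = 0.00892, 0.0106 and 0.034). These 3 missed the threshold under 3, 5 and 11 of 17 alternatives. Ilp5, which encodes an insulin-like peptide, stood at 0.675, 0.709 and 0.267 CPM in DPLG1 mutants and 0.0990, 0.0518 and 0.0787 CPM in DPLG4 mutants (7.29-fold, adjusted p = 0.0437). The groups did not overlap, but levels were low and the call was lost under 10 of 16 alternatives. PGRP-SD, a peptidoglycan recognition gene of the immune response, stood at 0.462, 0.536 and 0.534 CPM against 0.0495, 0.0104 and 0 CPM (23.6-fold, adjusted p = 0.00849, missed under 2 of 16 alternatives). Its exons overlap CG7492 on the opposite strand, and it is not known whether reads of the 2 genes were kept apart.

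Among the 3L genes that were higher in DPLG4 mutants, several were close to the floor in every DPLG1 mutant library. CG4098 (3L at 16608138 to 16609347, minus strand) stood at 11.3, 10.6 and 10.7 CPM in DPLG4 mutant replicates 15, 3 and 7. In DPLG1 mutant replicates 22, 5 and 7 it stood at 0.189, 0.134 and 0.0889 CPM, so the groups did not overlap and differed 74.8-fold (adjusted p = 6.85e-06). Controls matched the DPLG1 mutant at 0.107 to 0.128 CPM. The exons of CG4098 overlap Arts on the opposite strand. CG40472 stood at 4.09, 5.35 and 2.70 CPM in DPLG4 mutants and at 0.0473, 0 and 0.0222 CPM in DPLG1 mutants. Summed counts differed 158 times, within a 95% counting interval of 67.3 to 486 (adjusted p = 0.000993). CG12519 was 9.68-fold higher in DPLG4 mutants (6.17, 7.23 and 4.39 against 0.710, 0.536 and 0.578 CPM, adjusted p = 0.00319). Its neighbour CG32214, with 1 count over the 3 DPLG1 mutant libraries, gave a count ratio of 69.0 with an interval of 12 to 2759 (adjusted p = 0.00791, missed under 2 of 16 alternatives). CG13813 and CG42540 were 22.7-fold and 17.4-fold higher at levels under 1 CPM (adjusted p = 0.00841 and 0.00515), and each missed the threshold under 2 of 16 alternatives. CG40298, with 3 counts over the DPLG1 mutants, gave a count ratio of 65.2 (interval 22 to 319) (adjusted p = 0.0299, missed under 9 of 16).

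Genes of known role on 3L that were higher in DPLG4 mutants included metabolic, signalling and cell surface genes. Gabat encodes the transaminase that breaks down the neurotransmitter GABA. It stood at 403, 389.8 and 354 CPM in DPLG4 mutant replicates 15, 3 and 7 and at 232, 203 and 206 CPM in replicates 22, 5 and 7 of the DPLG1 mutant. The groups did not overlap (382 ± 25.0 against 213 ± 15.9 CPM, SD, n = 3, 1.79-fold, adjusted p = 0.00337), and controls were below both at 166 to 174 CPM. Exons of Gabat overlap Tom20 on the opposite strand. dpr6, which encodes an immunoglobulin-domain cell surface protein known from neurons, stood at 14.4, 18.0 and 18.1 CPM in DPLG4 mutants and 3.37, 3.62 and 5.31 CPM in DPLG1 mutants (4.10-fold, adjusted p = 0.00316). Controls lay between the mutants at 7.38, 8.88 and 10.4 CPM. vn encodes vein, a ligand of the epidermal growth factor receptor. It stood at 3.33, 3.603 and 2.64 CPM in DPLG4 mutants and 0.829, 1.15 and 1.07 CPM in DPLG1 mutants (3.15-fold, adjusted p = 0.0134, missed under 5 of 17). Bmcp, a mitochondrial carrier gene, was 1.45-fold higher in DPLG4 mutants, at 96.3, 91.5 and 92.6 CPM against 65.2, 61.7 and 66.3 CPM (adjusted p = 0.0217, missed under 10 of 17).

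Other 3L genes higher in DPLG4 mutants have no role given here. CG2162 (3L at 3035196 to 3040469, plus strand) stood at 98.0, 114 and 110.2 CPM in DPLG4 mutants and 36.1, 45.0 and 43.0 CPM in DPLG1 mutants. The groups were well apart (2.60-fold, adjusted p = 0.000828), with controls between them at 64.3, 64.9 and 73.1 CPM. CG10654 stood at 12.6, 10.3 and 10.6 CPM against 2.90, 1.88 and 1.98 CPM (4.93-fold, adjusted p = 0.0014), and its exons overlap vih on the opposite strand. The hairpin RNA gene hpRNA:CR32205, a class that gives rise to small interfering RNA, stood at 18.9, 17.9 and 11.2 CPM against 6.78, 5.0005 and 4.76 CPM (2.90-fold, adjusted p = 0.0247, missed under 10 of 17 alternatives). Its exons overlap CR33255 on the opposite strand. CG5665, CR15821 and CG10089 were 3.06-fold, 4.22-fold and 4.50-fold higher in DPLG4 mutants (adjusted p = 0.023, 0.0269 and 0.0449). They missed the threshold under 7, 10 and 11 of 17 alternatives.

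On 2L, the arm of CG12253, the calls were divided evenly between the directions. Higher in DPLG1 mutants were LManII, a lysosomal mannosidase gene, Idgf2, which encodes a secreted imaginal disc growth factor, the kinetochore gene Spindly, Drep4 and Tep2. LManII stood at 78.6, 74.6 and 90.3 CPM in DPLG1 mutants and 29.8, 34.9 and 40.0 CPM in DPLG4 mutants (2.33-fold, adjusted p = 0.00436). Idgf2 stood at 81.6, 68.8 and 92.1 CPM against 33.0, 36.3 and 24.9 CPM (2.57-fold, adjusted p = 0.00543, missed under 1 of 17 alternatives). For both genes the lowest DPLG1 mutant library was well above the highest DPLG4 mutant library. Spindly recruits dynein to kinetochores in dividing cells. It was 1.79-fold higher in DPLG1 mutants (114.8 ± 3.62 against 64.0 ± 9.40 CPM, SD, n = 3, adjusted p = 0.0122, missed under 4 of 17). Tep2, a thioester protein gene of insect immunity, was 2.46-fold higher (adjusted p = 0.0299, missed under 10 of 17).

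Lower in DPLG1 mutants on 2L were CG16957, asRNA:CR45330, Adh, dao and Jhbp13, all at a few CPM or less. CG16957 (2L at 13395360 to 13396184, minus strand) stood at 0.142, 0.0575 and 0.0889 CPM in replicates 22, 5 and 7 of the DPLG1 mutant and at 6.15, 5.06 and 3.15 CPM in DPLG4 mutant replicates 15, 3 and 7. The groups differed 46.7-fold (adjusted p = 0.000291), and controls lay with the DPLG4 mutant at 2.63 to 3.37 CPM. The antisense RNA gene asRNA:CR45330 stood at 0.178, 0.172 and 0.200 CPM against 1.98, 1.93 and 1.48 CPM (9.73-fold, adjusted p = 0.000828), and it overlaps other transcripts on the opposite strand. Adh encodes alcohol dehydrogenase. It had 1 count over the DPLG1 mutant libraries and stood at 0.396, 0.352 and 0.472 CPM in DPLG4 mutants, a count ratio of 71.6 with a 95% interval of 12.5 to 2862 (adjusted p = 0.00446). Jhbp13, with 2 counts over the DPLG1 mutants, gave a count ratio of 33.2 with an interval of 8.88 to 279 (adjusted p = 0.0299, missed under 9 of 16 alternatives). dao was 3.99-fold lower in DPLG1 mutants (0.956 ± 0.231 against 3.85 ± 1.33 CPM, SD, n = 3, adjusted p = 0.0195, missed under 8 of 17).

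Both Arc genes, relatives of retrotransposon Gag genes whose proteins form capsids that carry RNA, were higher in DPLG1 mutants. Arc1 (FBgn0033926, 2R at 14357927 to 14360297, minus strand) stood at 129, 153 and 109.7 CPM in replicates 22, 5 and 7 of the DPLG1 mutant and at 20.5, 18.8 and 18.8 CPM in DPLG4 mutant replicates 15, 3 and 7. The difference of 6.75-fold (adjusted p = 0.000255) left a wide gap between the groups. Arc2, which starts 1.63 kb from Arc1, stood at 26.3, 23.9 and 21.9 CPM against 9.24, 7.37 and 6.69 CPM (3.10-fold, adjusted p = 0.000968). Controls were at 20.5, 30.6 and 31.7 CPM for Arc1 and 6.91, 7.29 and 7.50 CPM for Arc2, much nearer to the DPLG4 mutant.

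A pair of genes of the DNA fragmentation system differed in opposite directions. Drep4, which encodes the nuclease that cuts chromatin in dying cells, stood at 28.1, 25.4 and 28.3 CPM in DPLG1 mutants and 14.6, 12.9 and 11.2 CPM in DPLG4 mutants (2.12-fold higher in DPLG1 mutants, adjusted p = 0.0135, missed under 3 of 17 alternatives). Its exons overlap CG44085 on the opposite strand. Drep1 on 2R, which encodes a protein related to the inhibitor of that nuclease, stood at 16.5, 17.2 and 18.7 CPM against 30.04, 41.3 and 33.2 CPM (1.997-fold higher in DPLG4 mutants, adjusted p = 0.0106, missed under 3 of 17). Controls stood at 8.70 to 11.9 CPM for Drep4, near the DPLG4 mutant, and at 17.0 to 19.2 CPM for Drep1, near the DPLG1 mutant.

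Germline and cell division genes were also among the calls outside 2L and 3L. The gene bam, which drives germline stem cell daughters into differentiation, stood at 65.3, 62.3 and 58.2 CPM in DPLG1 mutants and 39.6, 36.1 and 30.7 CPM in DPLG4 mutants (1.75-fold, adjusted p = 0.0138, missed under 5 of 17 alternatives). Controls, at 34.7, 37.4 and 35.3 CPM, lay with the DPLG4 mutant. The exons of bam overlap CG11854 on the opposite strand. Map205 on 3R encodes a microtubule-associated protein that binds Polo kinase. It stood at 301, 298 and 391 CPM in DPLG1 mutants and 56.6, 88.2 and 98.0 CPM in DPLG4 mutants (4.08-fold, adjusted p = 0.0192, missed under 5 of 17). Control replicates 1, 2 and 3 varied, at 214, 424 and 424 CPM, and reached the DPLG1 mutant level.

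Enzyme, immune and unnamed genes completed the calls on the other arms. The only X-linked call was spirit, a serine protease gene that acts upstream of Toll, at 1.60, 1.59 and 2.09 CPM in DPLG1 mutants and 0.0825, 0.0518 and 0.0787 CPM in DPLG4 mutants (24.7-fold, adjusted p = 0.000612). Controls, at 0.298, 0.600 and 0.572 CPM, lay between the mutants. Cyp6d4, a cytochrome P450 gene, was 2.41-fold higher in DPLG1 mutants (14.8 ± 3.65 against 6.16 ± 0.286 CPM, SD, n = 3, adjusted p = 0.0138, missed under 4 of 17 alternatives). The glycosyltransferase gene Ugt50B3 stood at 11.9, 10.1 and 18.4 CPM against 3.68, 4.43 and 4.56 CPM (3.18-fold, adjusted p = 0.0162, missed under 5 of 17), and its neighbour CG30440 was 1.77-fold higher (adjusted p = 0.0138, missed under 8 of 17). CG5245 on 3R stood at 15.5, 14.3 and 9.996 CPM in DPLG4 mutants and 5.03, 3.76 and 4.51 CPM in DPLG1 mutants (2.99-fold, adjusted p = 0.00841, missed under 3 of 17). The pseudogene CR43275 on 2R had 1 count over the DPLG4 mutants and a count ratio of 71.0 with an interval of 12.3 to 2849 (adjusted p = 0.034, missed under 8 of 16). FBgn0042174 and FBgn0038035, which have no symbol or position here, were 1.65-fold and 1.59-fold higher in DPLG1 mutants (adjusted p = 0.0122 and 0.0192), and missed under 4 and 8 of 17. For FBgn0042174 the means were 198 ± 6.11 and 119.8 ± 5.54 CPM, while controls stood at 38.2 ± 3.84 CPM (SD, n = 3).

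Positions of the called genes were uneven over the chromosome arms. Leaving out the targets, 49 called genes were placed on an arm. Of these, 28 lay on 3L, which held 57.1% of placed calls and 19.1% of tested genes, with 10 higher in DPLG1 mutants and 18 higher in DPLG4 mutants. On 2L there were 10 calls, 5 in each direction, for 20.4% of placed calls and 17.6% of tested genes. The other arms held fewer, with 6 on 2R, 4 on 3R and 1 on X, although 3R held 24.1% and X 17.8% of tested genes. The share of tested genes called was 1.78% on 3L, 0.690% on 2L, 0.358% on 2R, 0.201% on 3R and 0.0681% on X. At an unadjusted p under 0.05 the arms were more alike, with 9.68% of genes on 3L, 8.83% on 2L, 8.52% on 2R, 5.52% on X and 4.98% on 3R, while the small chromosome 4 had 14.3% of 77 tested genes and no call by edgeR. Of the placed calls of DESeq2, 35.1% lay on 3L. With the controls left out of the fit, the 3L share was 65.4%. No test over arms was run, since calls close to each other are not independent. Background differences linked to a target and effects of its mutation cannot be told apart by these positions.

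Along 3L the calls did not gather at CG7492 alone. They lay from -5.48 to 17.27 Mb from its start, with negative distances towards lower coordinates, with 3 of 151 tested genes called within 1 Mb (1.99%) and 8 of 386 called beyond 10 Mb (2.07%). All 3 within 1 Mb, namely pst, CG7565 and PGRP-SD, were lower in DPLG4 mutants. All 8 beyond 10 Mb were higher in DPLG4 mutants, and they include CG12519, Gabat, CG40298 and CG40472. Between 5 and 10 Mb the share was lower, with 4 of 522 genes called (0.766%). Along 2L the share called was 0.606% of 165 genes within 1 Mb of CG12253, where LManII was the only call, and 1.98% of 202 genes from 1 to 2.5 Mb. No gene of 160 was called beyond 10 Mb on 2L by edgeR, where 12.5% had an unadjusted p under 0.05. The 2L calls reached from Spindly at -7.46 Mb from the start of CG12253 to Idgf2 at 5.46 Mb.

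**Figure D3:**
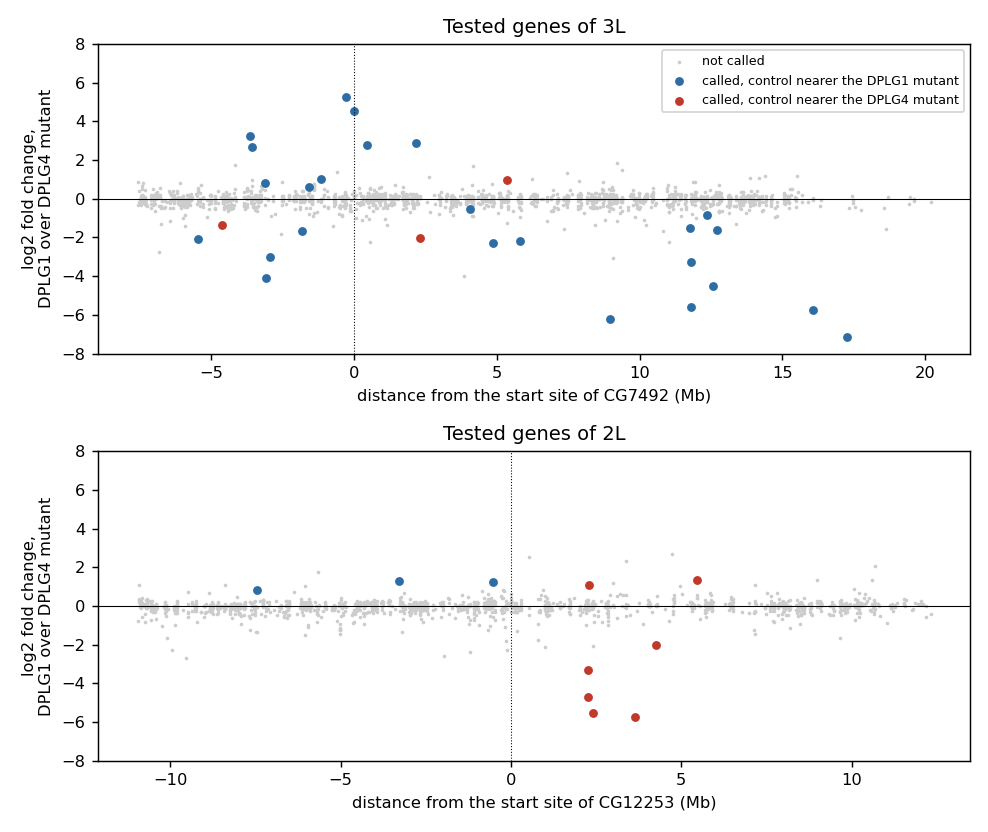
Log2 fold change (DPLG1 over DPLG4 mutant, vertical axes) of tested genes on 3L (upper panel) and 2L (lower panel) against the distance in Mb from the start of CG7492 or CG12253 (horizontal axes), targets left out, with called genes coloured by which mutant mean the control was nearer to on the log scale. Called genes reach from -5.48 to 17.27 Mb on 3L and from -7.46 to 5.46 Mb on 2L, where those with the control nearer to the DPLG4 mutant all lie to the right of CG12253.

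Some called genes had a called neighbour. Counting the targets, 16 of 51 placed called genes had another called gene starting within 100 kb (31.4%), against 7.55% of all tested genes. On 3L, where calls were denser, the shares were 31.0% and 21.5%. In all, starts of 9 pairs lay within 100 kb of each other, 5 pairs on 3L, 2 on 2L and 2 on 2R, and 7 pairs had the same direction. The closest were CG30440 and Ugt50B3 at 0.813 kb, Arc1 and Arc2, and Jhbp13 and asRNA:CR45330 at 1.82 kb. CG11357 and CG42540, 14 kb apart, differed in direction, as did asRNA:CR45330 and Drep4 at 44.7 kb. Around the targets themselves, 11 tested genes had a start within 20 kb of CG12253 and none was called by edgeR. The only one with an unadjusted p under 0.05 was piwi, which encodes the nuclear Argonaute protein of the piRNA pathway and starts at -0.386 kb from CG12253. It stood at 255, 225 and 244 CPM in DPLG1 mutants and 193, 179 and 177 CPM in DPLG4 mutants (log2 fold change 0.40, SE 0.09, edgeR adjusted p = 0.146). DESeq2 called piwi higher in DPLG1 mutants (adjusted p = 0.000303) and was the only alternative to do so, as piwi missed under 16 of 17. Controls stood at 184, 191 and 171 CPM, with the DPLG4 mutant. The exons of piwi overlap SCAR on the opposite strand. Of 4 tested genes within 20 kb of CG7492 only PGRP-SD was called by edgeR, and DESeq2 also called CG32373 (edgeR adjusted p = 0.259, DESeq2 adjusted p = 0.0315).

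The control libraries give the level without either mutation beside these differences. The 27 genes higher in DPLG1 mutants include the target CG7492. For 17 of them the control mean was nearer to the DPLG1 mutant, CG7492, pst, CG14985 and Map205 included. For 10 it was nearer to the DPLG4 mutant, among them Arc1, Arc2, Drep4 and bam. Of the 26 genes higher in DPLG4 mutants, the control mean was nearer to the DPLG1 mutant for 18 and nearer to the DPLG4 mutant for 8, the target CG12253 included. Each target counts towards the mutant that keeps it. On 3L, targets left out, the control was nearer to the DPLG1 mutant for 25 of 28 genes, the exceptions being CG2162, dpr6 and CG11263. On 2L it was nearer to the DPLG4 mutant for 7 of 10 genes. Those 7 all lay on the same side of CG12253, at 2.25 to 5.46 Mb, and the other 3, Spindly, Tep2 and LManII, lay on the opposite side. These are positions of the control mean on the log scale and no test of either mutant against control.

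Genes of the vitelline membrane and of yolk had mostly negative log2 fold changes, without any call by edgeR. The vitelline membrane is the inner eggshell layer, secreted by follicle cells around mid-oogenesis. Of its 11 genes, all tested, 10 had a negative log2 fold change, and the median was -1.09, against -0.03 over all tested genes. At an unadjusted p under 0.05, 6 of the 11 were lower, against 3.89% of all tested genes, and 1 was called lower by DESeq2. Vm26Ab stood at 19.0, 40.2 and 56.8 CPM in replicates 22, 5 and 7 of the DPLG1 mutant and at 96.9, 95.3 and 85.6 CPM in DPLG4 mutant replicates 15, 3 and 7. These groups did not overlap, but the log2 fold change of -1.26 (SE 0.33) gave an adjusted p of 0.238. Vm26Aa stood at 68.7, 107 and 164 CPM against 305, 266 and 169.6 CPM (adjusted p = 0.361). These were the only 2 of the 11 genes whose groups did not overlap, where 6.46% of all tested genes were lower without overlap. All 4 yolk genes, the yolk proteins Yp1, Yp2 and Yp3 and the yolk receptor gene yl, had negative values with a median of -0.73, 2 with an unadjusted p under 0.05 and 1 called by DESeq2. Yp2 stood at 116, 129.9 and 180.1 CPM in DPLG1 mutants and 279, 224 and 224 CPM in DPLG4 mutants (log2 fold change -0.77, SE 0.21, adjusted p = 0.257). Chorion genes, which form the outer eggshell layer in late stages, divided into 8 positive and 7 negative of 15 tested, with a median of 0.18 and none at an unadjusted p under 0.05 or called by DESeq2. Their summed level overlapped between the mutants, at 1153, 1580 and 2117 CPM against 1978, 2546 and 1480 CPM. Summed vitelline membrane levels did not overlap. They were 426, 578 and 697 CPM in replicates 22, 5 and 7 of the DPLG1 mutant and 742 to 929 CPM in DPLG4 mutants. Summed yolk levels, yl included, overlapped, at 789, 1097 and 1189 CPM in DPLG1 mutants and 1149, 1392 and 1831 CPM in DPLG4 mutants. Taken singly, 3 of the 4 yolk genes, Yp1, Yp2 and Yp3, were lower in DPLG1 mutants without overlap, against 6.46% of all tested genes. Yp1 stood at 80.9, 79.5 and 126 CPM against 165, 145 and 151 CPM (edgeR adjusted p = 0.685). Yp3 stood at 74.7, 74.3 and 122 CPM against 148, 145 and 172 CPM (edgeR adjusted p = 0.378). Deviations of each gene from its mean log level over the 6 mutant libraries were also taken per library. For vitelline membrane genes their median overlapped, at 0.05 in DPLG1 mutant replicate 7 and -0.05 in DPLG4 mutant replicate 7. For yolk genes it did not overlap, at -0.60, -0.54 and 0.03 in DPLG1 mutants and 0.40, 0.28 and 0.45 in DPLG4 mutants. The replicate SD was 0.473 for the vitelline membrane and 0.253 for yolk. The median log2 fold changes of both lists kept their sign under each of the 17 alternatives, at -1.39 to -0.65 for the vitelline membrane and -0.96 to -0.61 for yolk. The smallest vitelline value was that without DPLG4 mutant replicate 15. The chorion median changed sign, from -0.15 without DPLG4 mutant replicate 7 to 0.36 without replicate 15.

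**Figure D4:**
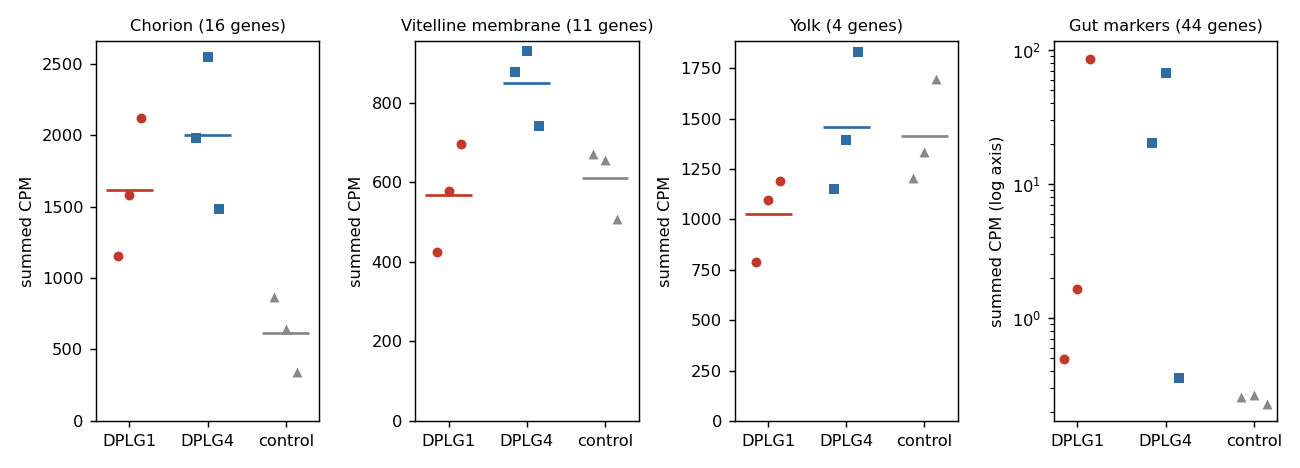
Summed level (CPM, vertical axes) of chorion, vitelline membrane, yolk and gut marker genes in each library, with 1 point per library, 3 libraries per group, horizontal bars for group means except for gut markers, and a log axis for the gut markers only. Vitelline membrane sums are 426 to 697 CPM in DPLG1 mutants and 742 to 929 CPM in DPLG4 mutants. Chorion sums and yolk sums overlap between the mutants, and gut marker sums are high in 1 DPLG1 and 2 DPLG4 mutant libraries.

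Calls in the gene lists were about as frequent as among all genes. Of 30 lists, 26 had none and 4 had 1 each, so 4 of 695 tested entries were called (0.576%, against 0.629% of all tested genes). In the piRNA list, whose genes silence transposons, none of 27 was called by edgeR. At an unadjusted p under 0.05 there were 3 higher genes and 1 lower gene, where the shares of all tested genes were 3.65% and 3.89%. DESeq2 called 1 of the list in each direction. In this list 6 were higher and 1 lower without overlap between the groups, against 9.04% and 6.46% of all tested genes. The median was 0.03. BoYb, a Tudor-domain gene of this list, stood at 38.6, 38.8 and 41.6 CPM in DPLG1 mutants and 53.3, 60.2 and 53.2 CPM in DPLG4 mutants (adjusted p = 0.0705). Meiosis genes (20 tested, median -0.04), maternal patterning genes (22, median -0.01) and cell cycle genes (28, median -0.03) had none called by edgeR. At an unadjusted p under 0.05 these lists had 2 lower, 0 and 2 higher genes. By DESeq2, calls were 2 meiosis genes, both lower, and none of the others. Among 14 early germline genes bam was the only call, and the median was -0.09. Chromatin silencing genes had 33 negative values of 44 and a median of -0.15 with a replicate SD of 0.291. This median ran from -0.34 to -0.0002 over the alternatives and was nearest to 0 without DPLG4 mutant replicate 7. None was called by edgeR, while 1 was higher at an unadjusted p under 0.05 and by DESeq2. There escl, which encodes a Polycomb-type protein, stood at 27.2, 25.98 and 25.04 CPM in DPLG1 mutants and 19.7, 18.1 and 16.5 CPM in DPLG4 mutants (adjusted p = 0.0624). Ecdysone genes had 12 negative values of 14 with a median of -0.36, and follicle signalling genes 18 of 24 with a median of -0.23, none called by either tool. At an unadjusted p under 0.05 there were 1 lower ecdysone gene and 1 follicle signalling gene in each direction. Without DPLG4 mutant replicate 7 these medians were -0.14 and -0.15, and without replicate 15 they were -0.21 and -0.14. With the trend of each library with exon length removed they were -0.10 and -0.13.

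Defence and detoxification genes included PGRP-SD, pst and Cyp6d4 among the calls, 3 of 98 tested entries (3.06%, against 0.629% of all tested genes). The immune, antiviral and detoxification lists were pooled here with the calls known, and they hold 3 of the 4 called entries of all 30 lists. Over all lists the share was 0.576%, and the pooled share was not tested. Starts of pst and PGRP-SD lie at -0.294 and -0.00357 Mb from that of CG7492, and exons of PGRP-SD overlap CG7492. Of 29 tested immune genes 21 had a positive value, PGRP-SD was the only call, and the median was 0.28 with a replicate SD of 0.657. Leaving out DPLG1 mutant replicate 22 brought this median to 0.05, and leaving out replicate 7 to 0.03. Levels of antimicrobial peptide genes varied within groups: AttA stood at 2.62, 0.364 and 2.22 CPM in DPLG1 mutants and 0.544, 0.248 and 0.0197 CPM in DPLG4 mutants, with an adjusted p of 0.434. AttC stood at 4.51 CPM in DPLG1 mutant replicate 22 and at no more than 0.445 CPM in the other mutant libraries (adjusted p = 0.572). The antiviral list held 8 tested genes with a median of 0.12, and pst was its only call. Of 61 detoxification genes Cyp6d4 was called, 3 were called higher and 1 lower by DESeq2, and the median was -0.04. Cyp6d2 and Cyp12d1-p were higher in DPLG1 mutants by log2 1.98 and 0.82 but missed the threshold (adjusted p = 0.0571 and 0.0713). Cytosolic ribosome genes had 70 negative values of 82 and a median of -0.09, close to the -0.03 of all genes. Their median changed sign over the alternatives, from -0.18 without DPLG4 mutant replicate 7 to 0.08 without replicate 15, and the replicate SD was 0.221. The proteasome and oxidative phosphorylation genes had medians of 0.04 and 0.02. None of these was called by either tool. At an unadjusted p under 0.05 there were 2 lower ribosome genes, no proteasome gene, and 2 higher and 1 lower oxidative phosphorylation genes. Of all tested genes 3.65% were higher and 3.89% lower at that threshold.

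**Figure D5:**
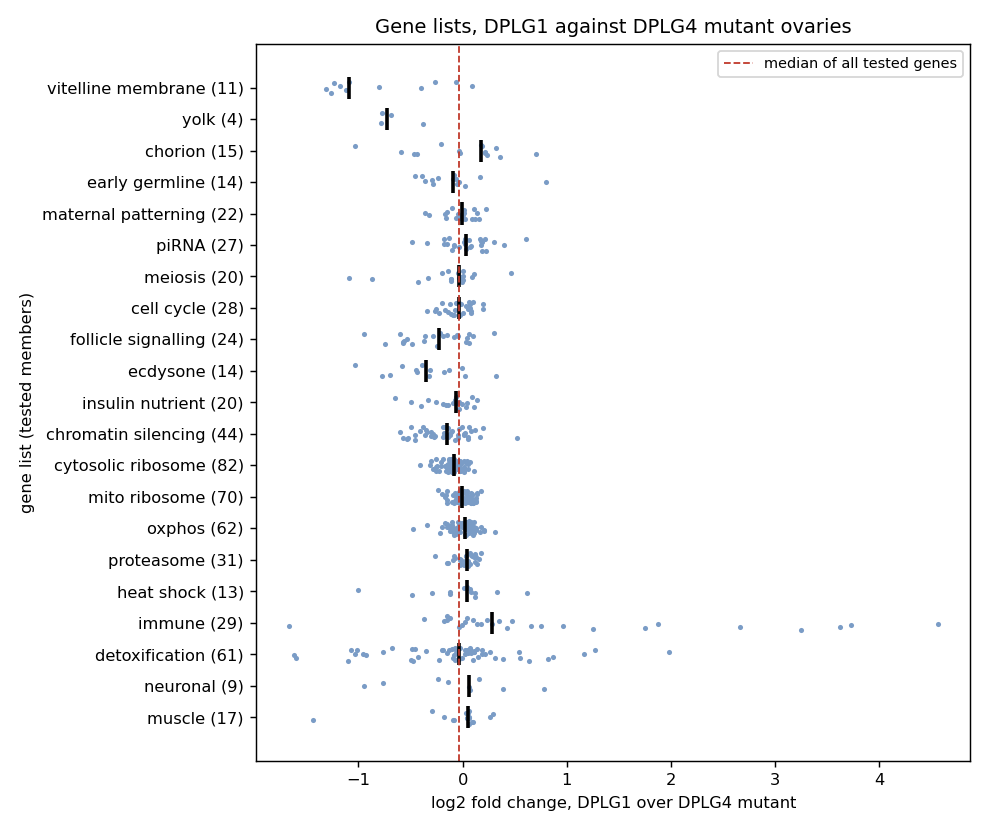
Log2 fold changes (DPLG1 over DPLG4 mutant, horizontal axis) of the tested members of 21 gene lists (rows, with the number tested in parentheses), with 1 point per gene, a black bar at the median of the list and a dashed line at the median of all tested genes. Most medians lie close to the dashed line, and those of the vitelline membrane at -1.09 and yolk at -0.73 lie furthest to the left.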

How the data were processed

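Total RNA of ovaries was sequenced in 3 libraries each of DPLG1 mutants, DPLG4 mutants and controls. The authors deposited raw counts per gene, with 17559 genes in a file for each library. Per the submitters' processing notes FastQC, STAR 2.5, HTSeq and DESeq2 were run, with BDGP6 and GRCh37 as builds. No source used here gives the role of GRCh37, the strand setting or the release of the annotation. Summary lines of reads not assigned to a gene, 12.1% to 13.8% of the total in mutants and up to 72.0% in controls (replicate 1), were left out.

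Symbols and positions came from release 115 of the Ensembl annotation of BDGP6.54, with RefSeq synonyms, for 17253 identifiers, while 306 had no symbol. In R 4.3.3, edgeR 4.0.16 with TMM scaling was fitted to all 9 libraries with group as the only term, after filterByExpr left 8427 of 13404 genes with any count (common biological coefficient of variation 0.217, quasi-likelihood test with robust dispersions). The contrast was DPLG1 minus DPLG4 mutant, with Benjamini-Hochberg adjustment over all tested genes. Fold changes are fitted, a standard error (SE) is the log2 fold change over the square root of F, and count ratios carry exact 95% intervals for counting error only. Each pair of replicates differed by more than sampling noise. The script was tested on simulated data.

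Gene lists, genes named and tests were chosen with earlier results of these data known. Every called gene was named, as 60 or fewer were called, except 1 that is not reported here. Values per library were given for the 8 largest and 8 most negative fold changes among called genes with a mean log2 CPM of at least 1, and for up to 6 genes in each direction of smallest p with a proper symbol, with the same exception. List members with small p and genes starting within 20 kb of a target were added, and some further values per library were chosen after they were seen. After matching, 1 list and 2 list entries whose names led to other genes were dropped. As alternatives, scaling by DESeq2 size factors or by the upper quartile, other filters, DESeq2 1.42.0, a fit with only the 6 mutant libraries, library sizes without eggshell and yolk genes, offsets that remove the trend with exon length, and leaving out each library were tried.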

Additional observations from a re-analysis of the deposited data

How the results depend on the processing

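No paired analysis was possible because the labels give no pairing of DPLG1 with DPLG4 mutant libraries. No called gene changed direction under any alternative that could test it. From 27 higher and 26 lower genes, with 10 on 2L and 28 on 3L, counts became 14, 15, 5 and 17 in a fit to the 6 mutant libraries, which leaves fewer libraries to estimate the spread. They became 57, 43, 18 and 40 with the trend of each library with exon length removed, and 102, 104, 38 and 68 with DESeq2. Leaving out 1 library gave 12 to 27 higher, 12 to 28 lower, 5 to 10 on 2L and 13 to 26 on 3L. Of the 53 calls, 29 passed with 6 libraries, 50 with the length trend removed and 53 with DESeq2. The 3L share of placed calls was 47.6% to 59.1% over the fits without 1 library and 42.6% with the length trend removed. Other scalings and filters kept each count within 1.5 times. The cause of these shifts was not tested beyond the number of libraries. The deviation of each gene's log level from its mean over all 9 libraries was correlated with exon length, and the correlation differed between libraries. It ran from -0.396 to -0.0457 in DPLG1 mutants, -0.499 to 0.435 in DPLG4 mutants and -0.209 to 0.600 in controls (Spearman rank correlation over 8248 genes, a description). These values compare a library with the average library and are not correlations of level itself with length. Depth limits genes near the floor, where 9 called genes had means under 1 CPM in both mutants.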
